A study of Mus musculus with 9 samples.

Results

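The transcriptome described here is that of Lewis lung carcinoma (LLC) tumours from mice given vehicle alone, 3 of the 9 tumour samples in the series. The samples were chosen by their label, vehicle, and no measured value entered that choice. LLC is a transplantable carcinoma line that arose in the lung of a C57BL/6 mouse. Per the labels, the hosts were C57BL/6 males, 4 to 5 weeks old, and each received a subcutaneous graft of LLC cells in the right flank. Dosing with PBS into the peritoneum began 5 days after grafting. The labels name no engineered allele in the cells or the host and give no day of tumour collection. The other 6 samples received digoxin at 0.1 or 1 mg/kg and enter none of the levels below, only the count of genes at 0 throughout the series. The labels do not say that the 3 vehicle samples came from separate mice, so each SD (n = 3 throughout) is a spread over samples that may in part be technical.

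A transplanted tumour is a mixture. The injected carcinoma cells divide among host fibroblasts that lay down collagen, endothelial cells that line new vessels, and infiltrating macrophages and lymphocytes, and bulk RNA pools all of them. LLC grows in mice with an intact immune system, and host macrophages are a well-known component of such grafts. In bulk samples fewer cells of a type and less RNA per cell cannot be told apart.

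Levels are FPKM, fragments per kilobase of transcript in a library scaled to a fixed size, a unit that corrects for gene length and library depth. The table listed 35321 genes. In the vehicle samples 12514 of them (35.4%) had a mean of at least 1 FPKM and are called expressed below. A further 15358 lay between 0 and 1 FPKM, and 7449 (21.1%) were at 0 in all 3 samples. The library depths behind the values, recovered from the spacing of low FPKM values, were 48649867 in sample 1, 50033250 in sample 2 and 51810956 in sample 3. The 3 libraries were not alike in every respect. Sample 1 had the highest level of all 6 expressed genes of the neutrophil list, all 7 of the red cell and platelet list and 7 of 8 of the skeletal muscle list, and results that rest on those lists are given per sample. Of all 12514 expressed genes, 4205 were highest in sample 1, 3748 in sample 2 and 4561 in sample 3.

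The abundant end of the profile was made of translation genes, mitochondrial transcripts, cytoskeleton and a few products of macrophages and secretory cells. The 10 most abundant genes held 8.65% ± 0.0491 of all FPKM and the top 100 held 27.6% ± 0.364. Cytosolic ribosomal proteins accounted for 13.6% ± 0.587 of the total and filled 39 of the first 100 ranks and 15 of the first 30. In all, 5338 genes reached 10 FPKM, 418 reached 100 and 20 reached 1000.

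Eef1a1, the translation factor that delivers aminoacyl-tRNA to the ribosome, ranked first at 5201, 5360 and 5342 FPKM in samples 1 to 3. It stood at nearly the same height in each, with a mean of 5301 ± 87.0. The mitochondrial cytochrome oxidase subunit mt-Co1 followed at 4212, 4863 and 4412 FPKM. It was lowest in sample 1, as was mt-Cytb, the cytochrome b subunit of respiratory complex III, at 2155, 2418 and 2288 FPKM. The stalk protein Rplp1 of the large ribosomal subunit had 3087, 2335 and 2696 FPKM, and the galectin Lgals1, a secreted sugar-binding protein, had 3141, 2478 and 2451 FPKM. Both were highest in sample 1.

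Lyz2, the lysozyme of macrophages and other myeloid cells, ranked eighth overall at 1802, 1615 and 1565 FPKM, the highest value of any gene on an immune cell list. A cytoskeletal and a chaperone gene lay close together. Actb, which encodes beta-actin, had 1218 ± 114 FPKM and Hsp90ab1, a cytosolic chaperone, 1202 ± 32.0 FPKM. Among the first 30 were also Ptma (prothymosin alpha, 1015 ± 52.8 FPKM), Tpt1 (a translationally controlled tumour protein, 961 ± 16.2), S100a6 (a calcium-binding protein, 959 ± 26.3) and B2m (the invariant chain of MHC class I, 917 ± 22.6). The plot of the 30 most abundant transcripts gives the position of each sample. The libraries were made from poly(A)-selected RNA, and an 18S ribosomal RNA-related entry, Rn18s-rs5, still ranked 30 at 787, 919 and 860 FPKM.

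**Figure D1:**
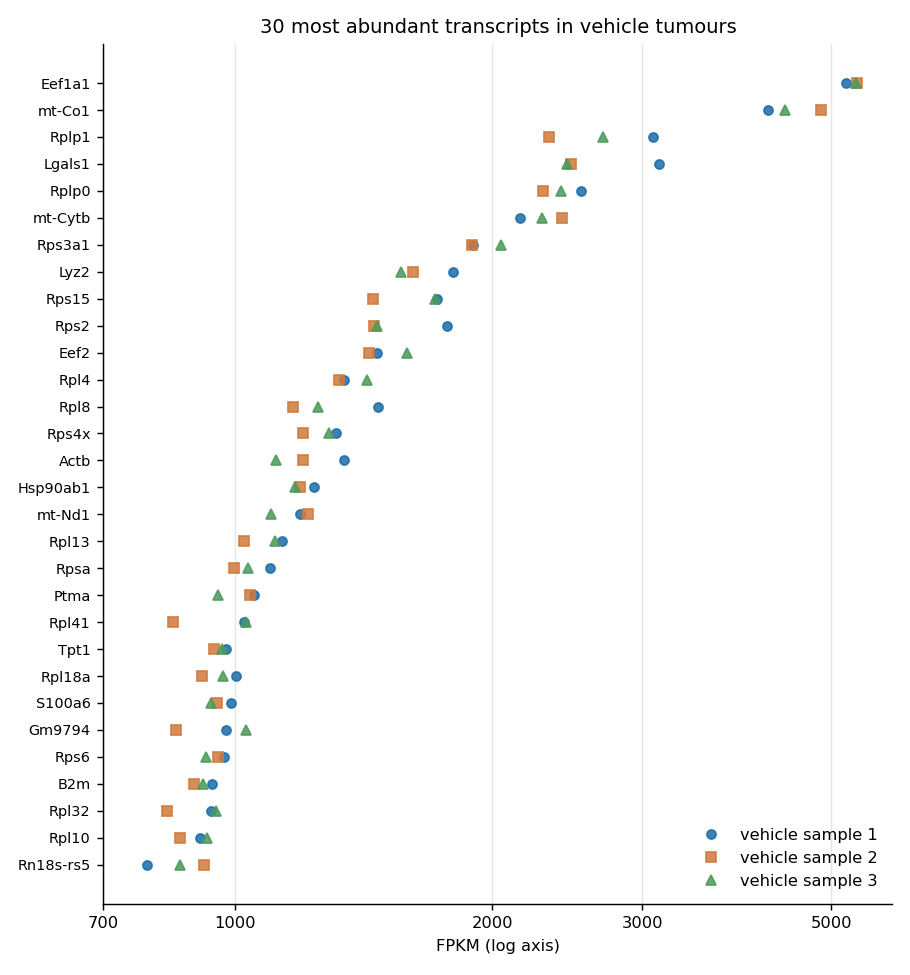
The 30 genes of highest mean FPKM in vehicle-treated tumours, with the FPKM of each of the 3 samples on a log axis. Eef1a1 leads at 5201 to 5360 FPKM in every sample, and 15 of the 30 genes encode cytosolic ribosomal proteins.

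Promoters of expressed genes held more CpG dinucleotides than those of absent genes. RefSeq promoters (mouse build GRCm38.p6, 250 bases before to 50 after the start of a gene) were matched by symbol to 13697 protein-coding genes of the table, or 78.2%. The median number of CpG dinucleotides per promoter was 4 in genes at 0 in all 3 samples, 9 in genes above 0 and under 1 FPKM, and 20 to 23 in the classes of 1 FPKM and over. The letters TATAAA, searched on the strand of the gene from 45 to 21 bases before the start, were found in 2.23% of all 27025 promoters in the RefSeq table. The share was 5.32% of absent genes, 0.864% of genes from 1 to 10 FPKM and 3.86% of genes from 100 to 1000 FPKM. None of the 12 promoters matched to genes of 1000 FPKM and over held it in that window, although that of Eef2 carries these letters nearer to the start. The 60 bases before the start are printed for 5 genes, from the absent class and the classes of 100 FPKM and over. These genes do not represent the share of promoters with TATAAA. They are the top gene, the macrophage lysozyme, an intermediate filament and an isomerase gene that hold the motif, and a pancreatic lipase gene that holds it and was at 0 FPKM. Capitals mark TATAAA, and a match is only a match of letters.
Eef1a1, chr9:78481725-78481784, minus strand: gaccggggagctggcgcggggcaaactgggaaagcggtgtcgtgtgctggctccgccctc
Lyz2, chr10:117282273-117282332, minus strand: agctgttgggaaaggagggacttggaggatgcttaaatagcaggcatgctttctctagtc
Vim, chr2:13574251-13574310, plus strand: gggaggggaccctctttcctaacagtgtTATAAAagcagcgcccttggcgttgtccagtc
Ppia, chr11:6415807-6415866, plus strand: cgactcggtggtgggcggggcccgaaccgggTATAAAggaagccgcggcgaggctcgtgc
Pnlip, chr19:58670305-58670364, plus strand: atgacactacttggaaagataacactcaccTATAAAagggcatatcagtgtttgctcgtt

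Although LLC is named a carcinoma, few genes of epithelial identity were expressed. Of 15 epithelial genes 3 reached 1 FPKM. Krt18, a keratin of simple epithelia, had 63.0, 43.1 and 60.9 FPKM, while its usual partner Krt8 had 4.13, 2.45 and 1.69 FPKM. Krt18 was thus far above Krt8 in every sample. The defining adhesion genes were near 0: Epcam had 0.0559 ± 0.0816 FPKM, and Cdh1, which encodes E-cadherin, had 0.371 ± 0.0794 FPKM. Ocln, a tight junction gene, was the third expressed member at 1.29 ± 0.149 FPKM. Esrp1 and Esrp2, splicing regulators of epithelial cells, were at 0.00204 ± 0.00353 and 0.0232 ± 0.0125 FPKM.

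Several defining genes of lung epithelium were likewise near 0, although some genes of the lung list were expressed. Nkx2-1, the transcription factor that specifies lung epithelium, and the surfactant gene Sftpd had no read in any of the 3 samples. For Nkx2-1 a count of 0 allows a mean of up to 0.00701 FPKM, the value of 3 reads over the 3 libraries if each read is independent. The limit is higher if the mates of a pair were counted separately. Sftpb and Sftpc, further surfactant genes, had 0.00996 ± 0.0102 and 0.0265 ± 0.0459 FPKM. The median of the lung list was 0.126 FPKM, beside 0.157 for all genes and 2.99 for protein-coding genes in the table. Of 13 lung lineage genes listed, 5 reached 1 FPKM, beside 10603 of 17509 protein-coding genes, and 2 further genes of the list had no row. The expressed members were led by Hopx at 12.6 ± 1.33 FPKM and the lipid transporter Abca3 at 5.55 ± 0.375 FPKM. The others were Ager (2.51 ± 0.559 FPKM), Napsa (1.75 ± 0.468) and Foxa2 (1.09 ± 0.135). The squamous and epidermal list had 0 of 6 members at 1 FPKM, with Krt14, Krt17, Dsg3 and Dsc3 at 0 in all samples. The neuroendocrine list had 2 of 7, Uchl1 at 3.26 ± 0.742 and Chga at 1.97 ± 0.627 FPKM.

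The mesenchymal program, in contrast, was expressed in 11 of 12 members, with a list total of 1226, 1220 and 1200 FPKM. Vim, which encodes the intermediate filament vimentin, stood at 799, 706 and 755 FPKM. Fn1, which encodes fibronectin, had 312, 393 and 332 FPKM. The transcription factors Snai1 (34.8 ± 0.685 FPKM) and Twist1 (34.6 ± 1.96 FPKM), both repressors of epithelial genes, varied little between samples, and Prrx1 was at 16.3 ± 1.70 FPKM. The exception was Cdh11, a cadherin of mesenchymal cells, at 0.0870 ± 0.0346 FPKM. Carcinoma cells and host fibroblasts can both carry these transcripts, and the share of each was not measured.

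All 12 proliferation genes were expressed, from 9.38 ± 0.618 FPKM for Tyms (thymidylate synthase) to 59.7 ± 0.696 FPKM for Pcna (the replication clamp). Mki67 and Top2a, both markers of dividing cells, stood at 28.6 ± 3.03 and 46.5 ± 2.36 FPKM. Among cancer genes, Myc was the highest at 235, 233 and 186 FPKM, lowest in sample 3. Trp53, which encodes p53, was nearly level at 61.7, 63.1 and 62.5 FPKM. The tumour suppressor Cdkn2a had 0.0702, 0.0682 and 0.0329 FPKM and its neighbour Cdkn2b had 0.322 ± 0.148 FPKM. In these samples the lowest 2 of the 20 cancer genes were therefore Cdkn2a and Mycl, the latter at 0.230 ± 0.0540 FPKM. Met (14.7 ± 0.724 FPKM) and Egfr (5.38 ± 0.933 FPKM), receptors for growth factors, were both expressed.

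Several genes known from embryo, placenta or germ line were among the clear signals. Rhox5, a homeobox gene of the X chromosome expressed in placenta and testis, had 330, 328 and 307.5 FPKM, above every other gene of its list in each sample. Hmga2, an embryonic chromatin protein, was at 55.4 ± 3.26 FPKM, Plac1, a placental surface protein, at 30.8 ± 6.04 FPKM, and the RNA-binding protein Igf2bp2 at 25.4 ± 1.88 FPKM. The imprinted long noncoding RNA H19 had 24.0 ± 1.89 FPKM. Its imprinted neighbour Igf2, a fetal growth factor gene, was at 0.00457 ± 0.00513 FPKM. Another annotated gene overlaps 64.5% of the exon bases of Igf2, and the part of this overlap in the low value was not tested. In all, 11 of 18 genes of this list were expressed, close to the share of all protein-coding genes in the table, 10603 of 17509. Lin28a, Gpc3 and Afp were under 0.2 FPKM.

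**Figure D2:**
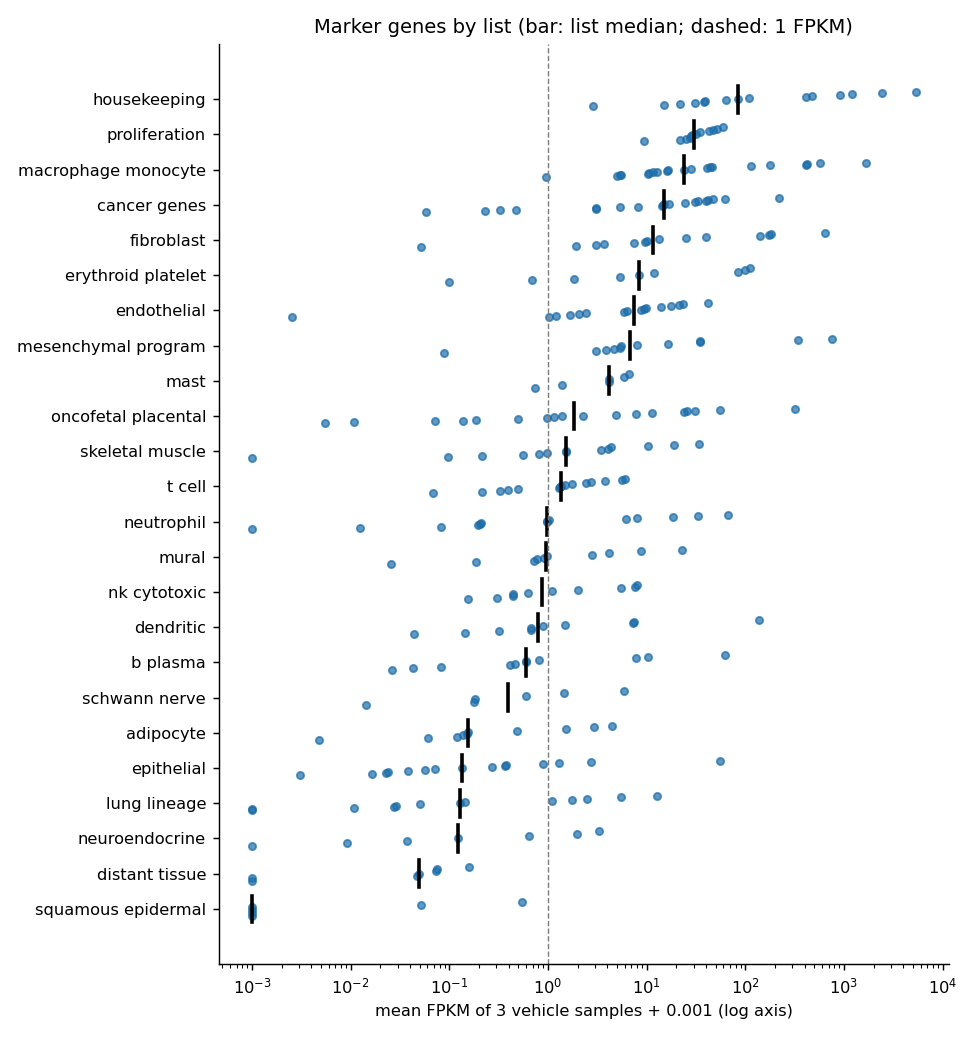
Mean FPKM over the 3 vehicle samples of each gene of 24 marker lists, on a log axis after adding 0.001 so that genes at 0 can be drawn, with the median of each list as a bar and 1 FPKM as a dashed line. Housekeeping, proliferation and macrophage genes have the highest medians, and the median of the squamous and epidermal list is at 0.

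Fibroblast genes were expressed in 13 of 14 cases. Col3a1, a fibrillar collagen chain of soft connective tissue, led at 586, 684 and 644 FPKM, followed by Dpt (dermatopontin, 182 ± 6.23 FPKM), Lum (lumican, 174 ± 23.2) and Dcn (decorin, 141 ± 8.81), matrix proteins that bind collagen. The chains of type I collagen, the main collagen of skin and bone, were lower and unequal. Col1a1 had 58.1, 35.8 and 26.3 FPKM, and Col1a2, which joins it in the same trimer, had 3.93, 2.90 and 2.32 FPKM. Both chains were highest in sample 1 and lowest in sample 3. Neither gene is overlapped by another annotated gene or shares a 150-base stretch with one. Among the 44 collagen genes 17 were expressed, and the highest after Col3a1 were the type VI chain Col6a1 at 348 ± 10.8 FPKM, Col18a1 at 145 ± 8.55 and Col6a2 at 134 ± 11.1 FPKM.

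The PDGF receptors that mark fibroblasts and pericytes were both present, Pdgfrb at 25.0 ± 2.76 and Pdgfra at 10.1 ± 0.821 FPKM. Acta2, the smooth muscle actin of myofibroblasts, had 13.3 ± 2.37 FPKM. Tagln, another gene of contractile cells, read 0.0506 ± 0.0273 FPKM, with 67.9% of its exon bases overlapped by another gene. Of 10 mural cell genes 4 reached 1 FPKM, led by Mcam (23.0 ± 2.50 FPKM) and Rgs5 (8.84 ± 0.926 FPKM), while the smooth muscle genes Myh11 and Cnn1 were at 0.188 ± 0.0620 and 0.0248 ± 0.0244 FPKM.

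Blood vessel endothelium was represented by 15 of 16 genes. The highest were Eng (endoglin, a TGF-beta coreceptor) at 41.6 ± 1.33 FPKM, Plvap (a fenestral diaphragm protein) at 23.2 ± 1.82 and Apln (apelin, a ligand of tip cells) at 21.1 ± 2.13 FPKM. Cdh5, which encodes VE-cadherin, had 16.1, 16.2 and 20.9 FPKM, highest in sample 3. Cldn5, the claudin of endothelial tight junctions, had 9.86, 10.5 and 21.2 FPKM. Sample 3 stood well above the others for Cldn5. It was the highest sample for 12 of the 15 expressed genes of this list, beside 4561 of all 12514 expressed genes. The list total was 164, 155 and 179 FPKM. Prox1, the transcription factor of lymphatic endothelium, was at 0.00153 ± 0.00266 FPKM, while Lyve1, which both lymphatic vessels and some macrophages express, had 10.1, 4.90 and 3.81 FPKM.

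Macrophage genes formed the strongest immune signal. Of 21 macrophage and monocyte genes 20 were expressed, 17 reached 10 FPKM and 6 reached 100, and the list total was 3839, 3605 and 3456 FPKM. After Lyz2 came Apoe, a lipid carrier secreted by macrophages, at 540, 615 and 555 FPKM. The complement genes C1qa (424, 422 and 423 FPKM), C1qb (411 ± 14.9 FPKM) and C1qc (178 ± 2.01 FPKM) encode the chains of C1q. C1qa was among the 10 least variable of the well-expressed genes, with a spread below that which read counting alone would give. The receptor Csf1r, on which macrophage survival depends, was similarly level at 43.1, 43.9 and 43.4 FPKM. Arg1, which encodes arginase 1, had 75.4, 37.0 and 26.1 FPKM and Nos2, the inducible nitric oxide synthase that uses the same amino acid, 7.90, 4.53 and 4.20 FPKM. Both were highest in sample 1, as were 15 of the 20 expressed genes of the list, beside 4205 of all 12514 expressed genes. Cd163, a scavenger receptor of resident macrophages, was the single gene under 1 FPKM at 0.947 ± 0.168.

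Lymphocyte transcripts were expressed but low. Of 15 T cell genes 10 reached 1 FPKM and none reached 10, with a list total of 26.3, 32.4 and 29.2 FPKM. The receptor constant regions Trbc2 (5.99 ± 0.974 FPKM) and Trac (5.64 ± 1.14 FPKM) were highest. Cd8a and Cd4, the coreceptors of cytotoxic and helper cells, were at 1.77 ± 0.165 and 1.36 ± 0.282 FPKM, and Foxp3, the factor of regulatory T cells, was at 0.0667 ± 0.0240 FPKM. Among 10 cytotoxic and natural killer genes 5 were expressed, led by Nkg7 (8.07 ± 1.03 FPKM), Gzma (7.64 ± 0.0751) and Gzmb (5.56 ± 0.910), the last pair being granule proteases. Of 11 B and plasma cell genes 3 were expressed. Sdc1 led at 61.8 ± 3.07 FPKM, but syndecan 1 is also an epithelial and carcinoma gene, and the B cell gene Ms4a1 was at 0.0256 ± 0.0107 FPKM. Ighm and Igkc, immunoglobulin constant regions, had 7.88 ± 1.40 and 10.4 ± 1.86 FPKM.

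Of 10 dendritic cell genes 4 reached 1 FPKM. Fscn1, an actin-bundling protein that many tumour cells also make, accounted for most of that list at 136 ± 14.3 FPKM, followed by Clec9a at 7.37 ± 0.547 and Itgax at 7.25 ± 1.57. Mast cell genes were expressed in 5 of 6 cases, all under 10 FPKM, with the tryptase Tpsb2 highest at 6.65 ± 0.738. Of 14 neutrophil genes 6 reached 1 FPKM. S100a9, a calcium-binding protein of neutrophils and monocytes, had 118, 50.8 and 31.8 FPKM, and its partner S100a8 had 33.6, 11.5 and 10.0 FPKM. Genes of immature granules, Elane, Mpo, Ltf, Camp and Ngp, were at 0 to 0.208 FPKM on average. The neutrophil list total was 223 FPKM in sample 1 against 104 and 81.8 in samples 2 and 3.

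Blood and muscle transcripts were also highest in sample 1. The red cell and platelet total was 510, 265 and 198 FPKM. Hbb-bs, a beta-globin, had 172, 93.1 and 72.6 FPKM, and Pf4, the platelet chemokine CXCL4, had 161, 79.1 and 57.9 FPKM. The globin copies Hbb-bs and Hbb-bt, like Hba-a1 and Hba-a2, share 50.7% to 68.7% of their 150-base stretches with other genes, so how reads were divided between them is uncertain. The skeletal muscle total was 134, 54.5 and 55.3 FPKM. Acta1, the actin of skeletal muscle, had 62.1, 21.0 and 19.5 FPKM, and Mylpf, a fast-fibre myosin light chain, had 20.3, 5.72 and 4.80 FPKM. Sample 1 lay above the others for both genes. Fat cell genes were low, with 3 of 10 at 1 FPKM (Fabp4 4.49 ± 0.872, Cfd 2.96 ± 1.17 and Lipe 1.51 ± 0.0212 FPKM), as were nerve sheath genes with 2 of 6. None of 7 genes of liver, pancreas, brain, retina or heart reached 1 FPKM, and the liver gene Alb and the pancreatic gene Pnlip were at 0.

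**Figure D3:**
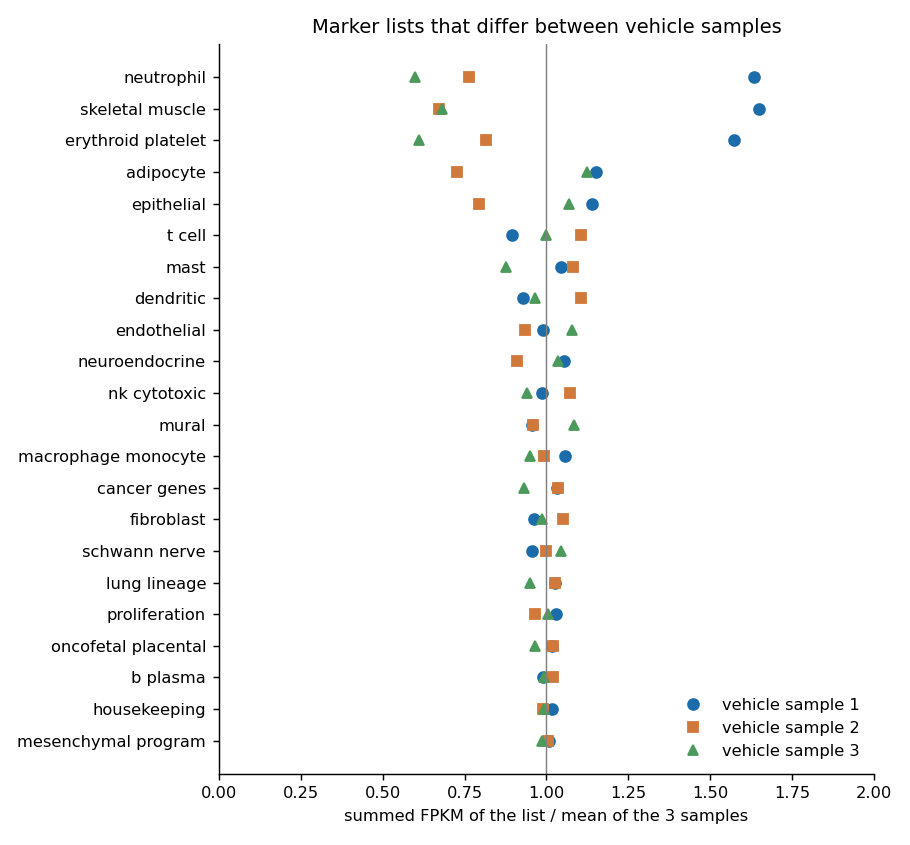
Summed FPKM of each marker list in each vehicle sample, divided by the mean of the 3 samples, for lists with a mean sum of at least 5 FPKM. Sample 1 lies above 1.5 for the neutrophil, skeletal muscle and red cell and platelet lists, and the other lists stay closer to 1.

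Within gene families the same member usually led in all 3 samples. A member was called dominant when it held at least 80% of the summed FPKM of its family in all 3 samples. Of 90 families with a sum of at least 1 FPKM, 45 had a dominant member, and for 33 the share was at least 90%. In 3 of the families only 1 member was listed, so its share was fixed. The same member led in all 3 samples in 88 of all 91 families. In the remaining 3 the leader changed between samples. The histone methyltransferases Ezh2 and Ezh1 had 8.89 ± 0.614 and 8.56 ± 1.01 FPKM, and the protease inhibitors Cstb and Cst3 had 223 ± 23.2 and 220 ± 12.8. The growth factor gene Pdgfa led with 14.8 and 13.3 FPKM in samples 1 and 2, and Pdgfb led with 11.9 against 11.7 in sample 3.

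The glycolytic enzymes showed both patterns. Ldha, the lactate dehydrogenase subunit of glycolytic tissue, held 99.6% ± 0.0288 of its family, at 471 ± 31.9 FPKM against 1.98 ± 0.122 for the heart-type Ldhb. Pkm was the sole pyruvate kinase gene, at 587 ± 19.2 FPKM, with the liver and red cell gene Pklr at 0 in all samples. Aldoa held 99.6% ± 0.0552 of the aldolases and Slc2a1, the glucose transporter of most dividing cells, 98.0% ± 0.215 of 4 glucose transporters. The liver and beta-cell transporter Slc2a2 was at 0. The enzymes of the early steps were shared. Hk1 held 45.0% ± 2.04 and Hk2 39.6% ± 2.63 of the hexokinases, and Pfkl held 57.2% ± 1.20 of the phosphofructokinases beside Pfkm and Pfkp. Each of these leaders was the same in every sample.

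Growth and signalling families also divided into dominated and mixed ones. Myc held 99.7% ± 0.0788 of the MYC genes and Fgfr1 99.9% ± 0.0235 of the FGF receptors, with Fgfr2 at 0.00249 ± 0.00432 FPKM. Axl held 92.6% ± 0.321 of the TAM receptors, kinases that bind Gas6, and Hif1a 91.4% ± 2.11 of the hypoxia-inducible alpha subunits. Vegfb held 49.0% ± 1.71 of the VEGF ligands, ahead of Vegfd at 24.4% and the main vessel growth factor Vegfa at 15.6%. Tgfb3 (53.9% ± 3.78) and Tgfb1 (44.5%) made up nearly all TGF-beta ligand transcript, and Tgfb2 had 1.55%. Among INK4 inhibitors of CDK4 and CDK6, Cdkn2d (56.4% ± 2.41) and Cdkn2c (42.6%) made up nearly all of the sum.

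The cytoskeleton drew on several members at once. Actb held 62.4% ± 0.896 of actin transcript and Actg1 35.2%, and the smooth muscle actin Acta2 had 0.678%. Acta1 of skeletal muscle held 2.85% in sample 1 and 1.10% in each of the others. Tubb5 held 56.1% ± 1.66 of the beta-tubulins, followed by Tubb6 at 20.9% and Tubb4b at 18.4%. Tpm4 led the tropomyosins with 45.9% ± 1.18. In contrast Vim held 99.1% ± 0.183 of the type III intermediate filaments and Myh9 96.3% ± 0.725 of the nonmuscle myosin II heavy chains. Cdh5, an endothelial member, led the 8 classical cadherins listed with 66.4% ± 1.80. Cdh1 of epithelium held 1.43% and Cdh2 of neural tissue 11.5%, and members not named here held the rest.

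A few family shares shifted with the sample. Ckb held 75.6%, 94.0% and 91.9% of the creatine kinases in samples 1 to 3, and the muscle gene Ckm made up 23.6% in sample 1, in which the skeletal muscle list was highest. The part of muscle tissue in that share was not tested. Ptgs1, the constitutive cyclooxygenase, held 54.5%, 65.3% and 82.5%, as the inducible Ptgs2 went through 17.1, 12.9 and 4.76 FPKM. Cpt1c, a carnitine palmitoyltransferase known mainly from brain, held 53.6% ± 3.25 of its family beside Cpt1a at 45.6% ± 2.91. In sample 1 their levels were nearly equal, 7.86 and 7.72 FPKM, so their order there is not separated by more than the spread between samples.

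**Figure D4:**
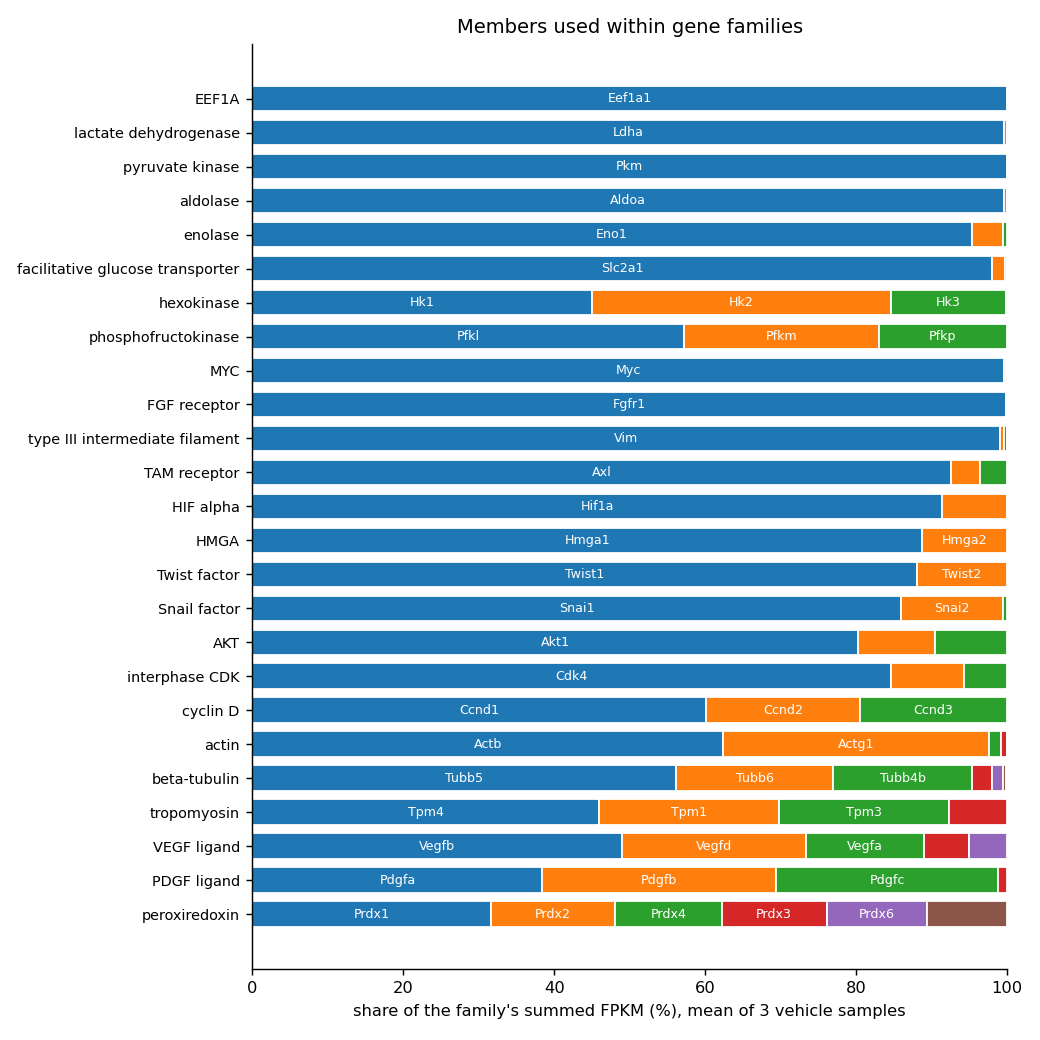
Share of each member in the summed FPKM of selected gene families, as means of the 3 vehicle samples, with members above 11% named. Lactate dehydrogenase, pyruvate kinase, MYC and FGF receptor bars are filled by a single member, whereas peroxiredoxins and VEGF ligands are divided.

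Of 40 ligand and receptor pairs 30 had both genes at 1 FPKM and 12 had both at 10. Spp1, which encodes the secreted adhesion protein osteopontin, had 698, 838 and 679 FPKM beside 39.7 ± 2.93 FPKM for its receptor Cd44. The cytokine Mif had 699, 568 and 617 FPKM. Its receptor Cd74, which is also the invariant chain of MHC class II, had 228, 293 and 418 FPKM, so the sample with most Cd74 was not that with most Mif. The macrophage growth factor Csf1 had 69.2, 73.6 and 58.1 FPKM and Il34, a second ligand of the same receptor, at 20.5 ± 2.37. The monocyte chemokines Ccl2 (194, 150 and 128 FPKM) and Ccl7 (152, 113 and 105 FPKM) were both highest in sample 1, and their receptor Ccr2 was at 11.5 ± 0.839. Gas6 had 17.4 ± 2.77 FPKM beside 129 ± 5.07 for Axl.

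Where a pair was incomplete, the ligand was more often the low gene, in 8 pairs against 2 for the receptor. Met had 14.7 ± 0.724 FPKM while its ligand Hgf had 0.312 ± 0.0779. Fgfr1 had 61.2 ± 2.68 FPKM while Fgf2 had 0.945 ± 0.148, and the receptor subunit Csf2ra had 20.5 ± 0.826 FPKM while the cytokine Csf2 had 0.378 ± 0.235. Conversely the leukaemia inhibitory factor gene Lif had 3.03 ± 1.27 FPKM while Lifr had 0.755 ± 0.0702, and the checkpoint ligand Cd274 had 3.51 ± 0.208 while its receptor Pdcd1, a T cell gene, had 0.527 ± 0.254. A transcript level does not show that a protein is made or bound.

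Most genes varied little between the 3 samples. The coefficient of variation (CV, the SD divided by the mean) had a median of 0.0706 over expressed genes, and 171 of them (1.37%) exceeded 0.5. That count depends on sample 1: without it, over the remaining samples, 111 genes exceeded 0.5. Most of the 171 were low, with 152 at 1 to 10 FPKM, 16 at 10 to 100 and 3 at 100 to 1000. Of the 171 genes 75 were highest in sample 1, 57 in sample 2 and 39 in sample 3. Over all 12514 expressed genes these numbers were 4205, 3748 and 4561. For the 11515 expressed genes whose reads could be recovered as whole numbers, the spread that counting alone would give was estimated on the assumption that mates of a pair were counted separately. Among those of 1 to 10 FPKM the median CV was 0.0897 and the median counting CV 0.0472. Among those of 100 to 1000 FPKM they were 0.0593 and 0.00952. The CV was more than 2 times the counting CV in 5645 genes (49.0%), or in 7685 (66.7%) if each pair was counted once. Read depth therefore limits the low genes more than the high ones. The least variable genes of 10 FPKM or more were Xpo5, an export receptor for microRNA precursors, at 22.7 ± 0.0126 FPKM, and Cyth2, a regulator of ARF GTPases, at 23.8 ± 0.0132 FPKM. Their CVs of 0.000556 and 0.000558 lay far below their counting CVs of 0.0160 and 0.0221. With 3 samples such values do not show that these genes are steadier than others.

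Gene models without a name and pseudogenes were set aside, which left 5034 genes of at least 10 FPKM. Of the 20 most variable of these, 16 were highest in sample 1, beside 4205 of all 12514 expressed genes. Besides the genes given above, the chemokine Ccl8 had 97.2, 34.5 and 33.8 FPKM, the matrix protein Thbs1 47.8, 23.6 and 13.2 FPKM, and the haem-degrading enzyme Hmox1 190, 140 and 52.0 FPKM. Sample 1 was the highest for each, and the part that blood or muscle in the sample had in these values was not tested. The matrix protease Mmp3 was highest in sample 2, at 111, 238 and 99.8 FPKM. Genes of MHC class II, chosen here after their values were seen, went the other way. H2-Aa had 48.3, 62.7 and 90.1 FPKM, H2-Ab1 59.5, 74.5 and 108 FPKM and H2-Eb1 69.2, 82.7 and 128 FPKM. All were highest in sample 3 and lowest in sample 1, as Cd74 was.

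Among widely used reference genes, the values listed for Gapdh were unsteady. Of 15 housekeeping genes all were expressed, and Hprt (85.2 ± 2.27 FPKM), B2m and Sdha (64.4 ± 1.06 FPKM) were level. Gapdh, the glycolytic enzyme often used as a loading control, had 11.5, 24.0 and 57.6 FPKM, a CV of 0.768, the third highest among the 5034 genes of at least 10 FPKM left without pseudogenes and unnamed models. The neighbouring enzymes of the pathway were far higher, Aldoa with the bulk of 303.1 FPKM summed over the aldolases and Pgk1 at 414 ± 19.7 FPKM. Of the 150-base stretches of Gapdh transcripts 46.9% occur unchanged in another annotated gene, and a read lying wholly within such a stretch has no unique origin. For Pgk1 that share is 58.7%. The part that shared sequence had in the Gapdh values was not tested.

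The mitochondrial messenger RNAs, also chosen after their values were seen, show the same measurement across 13 genes. The 3 genes with at least 99% of their 150-base stretches found elsewhere in the annotation were mt-Co2, mt-Co3 and mt-Atp6. They had 83.8 ± 36.9, 67.9 ± 12.4 and 37.8 ± 6.36 FPKM, while mt-Co1, with 23.6% of its stretches shared, had 4496 ± 333 FPKM. The genes mt-Cytb, mt-Nd1 and mt-Nd2, with no shared stretch, had 2287 ± 131, 1168 ± 60.8 and 718 ± 60.3 FPKM. The gene mt-Atp8 shares no 150-base stretch and had 1.65 ± 0.454 FPKM. That value rests on a mean of 17 reads, and another annotated gene overlaps 21.1% of its exon bases. The gene mt-Nd4, with 59.2% shared, had 646 ± 37.7 FPKM, and mt-Nd4l, with 98.0% shared, had 4.65 ± 0.369 FPKM. The part of shared sequence in these levels was not tested. The messages of these genes are cut from common precursor transcripts, and the values listed for the genes differ by orders of magnitude. Whether the listed values reflect the levels of the transcripts was not tested.

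**Figure D5:**
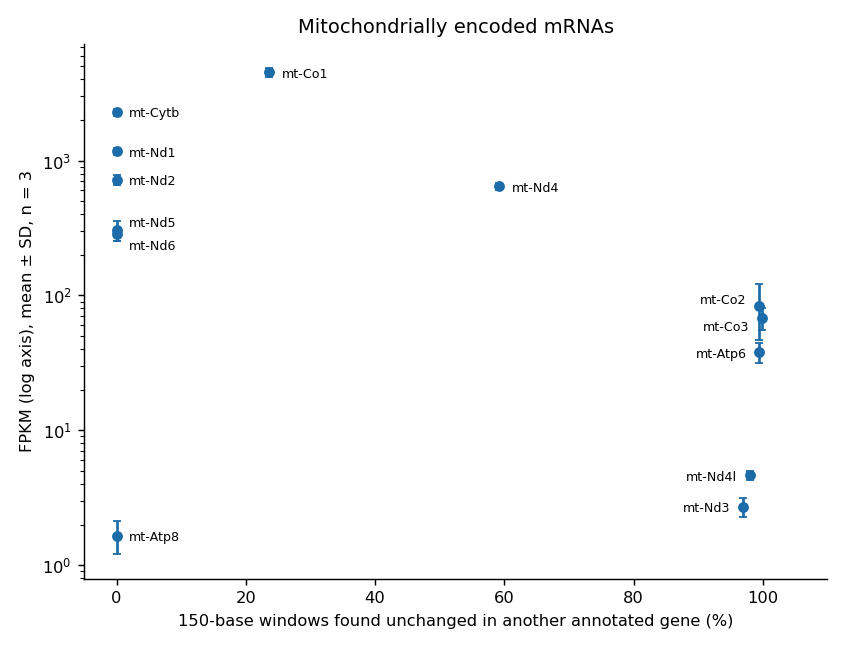
Mean FPKM (SD as error bars, n = 3, log axis) of the 13 mitochondrial genes that encode proteins against the percentage of their 150-base stretches that occur unchanged in another annotated gene. The 5 genes with the highest shares lie at 83.8 FPKM or below. The gene mt-Atp8 is low with none shared, and 21.1% of its exon bases are overlapped by another gene.

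Median levels were also lower among protein-coding genes that overlap or share sequence, and the part of either in the levels was not tested. Of 17509 listed protein-coding genes, 344 have at least 50% of their exon bases overlapped by another gene. Their median level was 0.244 FPKM against 3.10 for the rest, and for the 674 genes with at least 50% of their 75-base stretches shared it was 0.0747 against 3.22. Both groups also held abundant genes. Of the 344 genes 30 reached 10 FPKM, and of the 674 genes 87 did, among them Rps3a1 at 1948 ± 86.0 FPKM with 60.2% shared. Mt2, a metallothionein with 73.5% of its exon bases overlapped, had 0.410 ± 0.192 FPKM while its neighbour Mt1 had 92.6 ± 28.7. S100a4, a marker of fibroblasts and motile tumour cells with 51.7% overlapped, had 5.42 ± 0.709 FPKM. Conversely, processed pseudogenes held 5.01% ± 0.273 of all FPKM. Of 76 pseudogenes of at least 10 FPKM named after a listed parent gene, 10 exceeded that parent. Rps10-ps2 had 883, 706 and 825 FPKM against 6.40, 8.17 and 7.13 for Rps10 itself, and Mpc1-ps had 42.4 ± 3.06 against 3.30 ± 0.0865 for Mpc1, a subunit of the pyruvate carrier. Rpl30-ps10 had 150, 6.45 and 13.0 FPKM, so that sample 1 stood apart for a pseudogene while Rpl30 itself was lowest there at 87.3 FPKM. How reads were divided between such copies is uncertain.

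The 7449 genes at 0 in all 3 samples were a mixture of biotypes. They comprised 1534 protein-coding genes (8.76% of those listed), 1414 processed pseudogenes and 1141 long intergenic RNAs. No gene was at 0 in all 9 samples of the series, so each of these had a signal in at least 1 sample outside the vehicle group, and genes with no signal anywhere have no row. Of 21923 protein-coding symbols in the annotation used here, 4414 were not listed. The count of absent genes is thus a count within the table and not a count of silent genes.

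Many listed genes of several tissue-specific families were at 0. Of the listed olfactory receptors 248 of 343 were at 0, and the highest, Or8b53, had 0.437 ± 0.0750 FPKM. Of the vomeronasal receptors, which detect pheromones, 128 of 169 were at 0. All 6 keratin-associated proteins of hair, all 8 late cornified envelope genes of epidermis and all 4 alpha-defensins were at 0, against 5 of 12 small proline-rich genes of epidermis and 5 of 9 taste receptors. Of 8 interferon alpha genes 6 were at 0, and Ifna7 was the highest at 0.0225 ± 0.0389 FPKM. Hox genes, which set position along the body axis, were on the other hand partly expressed. Of 36 listed 17 reached 1 FPKM, led by Hoxd9 at 21.5 ± 0.408 and Hoxd8 at 17.4 ± 0.812 FPKM, and 3 were at 0. Members of the families at 0 included the testis cytochrome c Cyct, whose somatic counterpart Cycs held the whole family sum of 27.2 FPKM, and Atp1a4, the sperm isoform of the sodium pump.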

How the data were processed

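Poly(A)-selected RNA from tumours was sequenced as 150 bp read pairs, per the labels. The deposited table held the authors' FPKM values for 35321 genes. The tools named in the submitters' processing notes are HISAT2 2.2.1, an aligner, and fastp 0.22.0, a read trimmer, with GRCh38 as the genome. Since GRCh38 is human and the gene symbols are murine, the files gave no usable coordinates. Neither the read counter nor the gene annotation is stated there.

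Means, SDs and CVs were computed over the 3 vehicle columns with Python 3.11.15, NumPy 2.4.6 and pandas 2.3.3, and no test was made. Recovered reads are FPKM multiplied by merged exon length (GENCODE vM21) and depth. They came out whole within 0.03 reads for 92.0% of expressed genes. Among genes with 1 to 20 reads 61.1% to 62.5% of the numbers were even, and whether the mates of a pair were counted separately is not stated, so the counting CV assumes that they were. Counting limits cover counting error only. The overlap and 75- and 150-base sharing measures come from the same annotation, of which 89.9% of the listed genes found a match.

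Of 572 symbols in the lists, 551 were found as written. The samples were taken by their label. The lists and families, and the choice to describe this group, were made with earlier results of these data known. The genes named are the 30 most abundant, the 20 of highest and 10 of lowest CV at 10 FPKM or more, the leading and absent members of each list, members of the families described and the leaders of symbol groups; further members of the lists, and pseudogenes set against their parents, were chosen after their values were seen. Pseudogenes and unnamed gene models were left out of the choice by CV. Alternatives were leaving out each sample, rescaling to TPM, other thresholds, recovered reads in place of FPKM and, added later, families without overlapped or shared members.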

Additional observations from a re-analysis of the deposited data

How the results depend on the processing

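No paired analysis was possible because only the vehicle group is described and no groups are compared. Counts were compared within 1.5 times the value given and the share of the top 100 genes within 1 SD of it. Of 29 alternatives 23 stayed within these limits and 6 did not. When each sample was left out in turn, the number of genes at 1 FPKM was 12481 to 12570, the number at 0 was 8476 to 8901, the share of the top 100 genes was 27.4% to 27.8%, the number of families with a dominant member was 45 to 46 and the number of genes with a CV over 0.5 was 111 to 209, the lowest without vehicle sample 1. The share of the top 100 genes was 26.0% without mitochondrially encoded genes and 19.04% when counted in recovered reads, which are not divided by gene length. The number of genes with a CV over 0.5 was 9474 with no filter on low values, 32 at a mean of at least 5 FPKM and 355 by an SD of log2(FPKM + 0.1) over 0.5. The filters change how many low genes are counted; for the pseudocount the cause was not tested. Rescaling to TPM put 15579 genes at 1 or more, and 11989 reached 1 FPKM in each sample. A mean under 0.01 FPKM held for 9484 genes. Leaving out overlapped or shared members, chosen after seeing the data, gave 48 families with a dominant member. Counting error limits the low genes most: 3 reads in a gene of 2000 bases were worth 0.0290 to 0.0308 FPKM.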

Other observations

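Long noncoding RNAs held 0.798% ± 0.0531 of all FPKM, and none was among the first 100 genes. The following genes were chosen after their values were seen. Gas5, a host gene of small nucleolar RNAs, had 55.1, 64.9 and 59.7 FPKM. The nuclear transcripts Neat1 and Malat1, often among the most abundant noncoding RNAs of mammalian cells, had 26.0 ± 1.37 and 15.3 ± 2.49 FPKM. Malat1 was lowest in sample 1, at 12.6 FPKM against 17.6 and 15.6. The imprinted Meg3 had 0.322 ± 0.00111 FPKM, far below H19.

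The mice were labelled male. Xist, the RNA that coats an inactive X chromosome, had 12.0, 16.6 and 13.8 FPKM in the 3 samples. The Y-linked genes Eif2s3y (1.99 ± 0.153 FPKM), Ddx3y (1.74 ± 0.0773), Uty (0.317 ± 0.0511) and Kdm5d (0.301 ± 0.0285) were detected in each of the same samples. The pseudogene Gm10123, at rank 67, had 619, 237 and 639 FPKM, lowest in sample 2, and 100% of its 150-base stretches occur in another annotated gene. The small ubiquitin-like modifier gene Sumo2 had 34.2, 52.3 and 13.3 FPKM, highest in sample 2.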
